A study of Mus musculus with 15 samples.

Results

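The monoamine and acetylcholine receptors were described here as a fixed list of 37 genes, made up of 12 serotonin receptor genes, 5 dopamine receptor genes, 7 adrenergic receptor genes, 5 muscarinic receptor genes and 8 nicotinic receptor subunit genes. The members were found by gene name in both deposited expression tables. Of the 37 genes, 29 were present in 1 or both tables and 24 in both, with 28 among the 26835 genes of the *Lhx6* table, 25 among the 25714 genes of the *Mtg8* table and 28391 different genes in the series. The cells were YFP-positive cells sorted at E14.5 from the dissected cortex of single mouse embryos on a mixed C57BL6/CBA background. RNA-seq compared embryos lacking the transcription factor LHX6 or its cofactor MTG8 with control embryos, which the paper describes as littermates. All embryos carried the Nkx2-1-Cre transgene, which is active in the medial ganglionic eminence (MGE) and marks the interneurons born there, and the R26R-YFP fl/fl reporter. The groups were 4 *Lhx6* controls (Lhx6+/+), 5 *Lhx6* mutants (Lhx6-/-), 3 *Mtg8* controls (Mtg8+/+) and 3 libraries labelled *Mtg8* mutant (Mtg8-/-). The -/- genotypes applied to the whole embryo and not to the YFP-positive cells alone.

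Serotonin, dopamine, noradrenaline and acetylcholine reach the cortex through long axons from brainstem, midbrain and basal forebrain nuclei, and migrating interneurons can already express receptors for them. Most of these receptors are single proteins that pass their signal to heterotrimeric G proteins, with Gs-coupled members raising cyclic AMP, Gi-coupled members lowering it and Gq-coupled members activating phospholipase C. The serotonin receptor encoded by *Htr3a* and the nicotinic receptors are instead pentameric ion channels gated directly by the transmitter. In the mature cortex *Htr3a* is a widely used marker of interneurons that arise outside the MGE, mainly in the caudal ganglionic eminence (CGE).

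The libraries held between 12218422 and 22053032 reads in genes. The target gene *Lhx6* fell in the *Lhx6* mutants, from 7247 ± 1093 normalized counts (reads divided by a size factor for each library; SD, n = 4) to 331 ± 99.7 (SD, n = 5). The gene encoding MTG8, *Runx1t1*, was not lower in the libraries labelled *Mtg8* mutant, with 8891 ± 1219 normalized counts in controls and 12845 ± 944 in those libraries (SD, n = 3 each; log2 difference 0.54, limma adjusted p = 0.859), so this gene did not check those labels. *Sst*, an MGE interneuron marker, was at 39.6% of its control mean in the libraries labelled *Mtg8* mutant (16695 ± 2080.5 against 6615 ± 1259, without overlap; adjusted p = 0.0713 by limma and 9.25e-06 by DESeq2). *Npy* was at 47.1% (5478 ± 668 against 2583 ± 871, without overlap; adjusted p = 0.58 by limma and 0.0247 by DESeq2). *Gad1*, a marker of GABAergic neurons of any origin, was at 2585 ± 324 normalized counts in the *Lhx6* controls and 3075 ± 305 in the *Mtg8* controls. The cholinergic neuron genes *Chat* and *Slc18a3* were not listed in either table, and other cholinergic markers of the *Lhx6* table are given below.

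Most of the receptor genes were at very low levels. A gene was tested when its mean was at least 10 normalized counts in a table, which 15 members passed in the *Lhx6* table and 12 of the same 15 in the *Mtg8* table. A further 14 members were listed in 1 or both tables and passed in neither, and were too low to judge: *Htr1d*, *Htr1f*, *Htr2b*, *Htr4*, *Htr5a*, *Htr6*, *Drd3*, *Adra1a*, *Adra2a*, *Adra2b*, *Chrm5*, *Chrna5*, *Chrnb1* and *Chrnb4*. None of these 14 exceeded 26 reads in any library. *Htr1d*, a Gi-coupled serotonin receptor gene, was uneven among them, with 1, 0, 1 and 0 reads in *Lhx6* controls and 15, 25, 0, 12 and 0 reads in the mutants, and was not tested. The nearest to the minimum was *Chrnb1*, a nicotinic subunit best known from muscle, with a mean of 9.95 normalized counts in the *Lhx6* table. The 8 remaining members, *Htr1b*, *Htr3b*, *Drd2*, *Drd5*, *Adra1b*, *Adra1d*, *Chrm4* and *Chrna6*, were listed in neither table, so no expression value of theirs is given here.

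Promoter sequence could be matched by gene name for 31 of the 37 members (RefSeq, GRCm38.p6), whether or not they were listed in a table, and bases 250 to 51 before the annotated start were searched for TAATTA, a palindromic core that homeodomain proteins such as LHX6 can bind. The motif was found in 3 of 36 member windows, those of *Htr2a*, *Chrm5* and *Chrnb1*, and in 4.19% of all 32851 windows of the same length. The tested members *Htr3a* and *Chrm1* had no window and were not searched. Of the tested members that were searched, *Htr2a* alone had a match. Its window is shown with the match in capitals beside that of *Chrnb2*, the member with the most reads, which had no match. A match is a run of letters and not a measured binding site.
Htr2a, chr14:74640624-74640823, plus strand: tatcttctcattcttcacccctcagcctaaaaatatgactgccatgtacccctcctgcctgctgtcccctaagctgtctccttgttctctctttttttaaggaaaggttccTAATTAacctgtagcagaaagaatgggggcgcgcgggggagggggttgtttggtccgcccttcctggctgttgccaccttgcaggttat
Chrnb2, chr3:89764683-89764882, minus strand: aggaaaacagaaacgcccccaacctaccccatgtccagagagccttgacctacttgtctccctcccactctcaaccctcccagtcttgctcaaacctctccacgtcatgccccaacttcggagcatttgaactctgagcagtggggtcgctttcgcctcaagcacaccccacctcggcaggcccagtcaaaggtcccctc

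Levels of different genes were compared per kilobase of exon. In *Lhx6* controls *Htr3a* stood first, with 107 ± 10.6 normalized counts per kb (SD, n = 4), and *Chrnb2*, which encodes the beta subunit found in most neuronal nicotinic receptors of the brain, stood second with 70.4 ± 10.8. The range of *Htr3a* (96.9 to 121) did not overlap that of *Chrnb2* (57.1 to 79.7), and neither overlapped the next gene, the nicotinic subunit *Chrna3*, with 11.5 ± 7.2 per kb. Together *Htr3a* and *Chrnb2* held 70.4% of the summed level per kb of the receptor genes in these controls. From *Chrna3* down, each gene's range overlapped that of the gene after it in the order. *Htr3a* lay at percentile 75.6 of all genes in the table and *Chrna3* at percentile 46.2, and 9 members had a control mean below 1 per kb.

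In *Mtg8* controls the same pair led, with 181 ± 25.9 normalized counts per kb for *Chrnb2* and 163 ± 40 for *Htr3a* (SD, n = 3), and here their ranges overlapped. They held 77.2% of the summed level. *Htr2a*, a Gq-coupled serotonin receptor, followed with 16.1 ± 8.44 per kb, below the range of *Htr3a*, and from there on neighbouring ranges overlapped. The tables had been normalized separately, so a level in one was not compared with a level in the other.

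**Figure D1:**
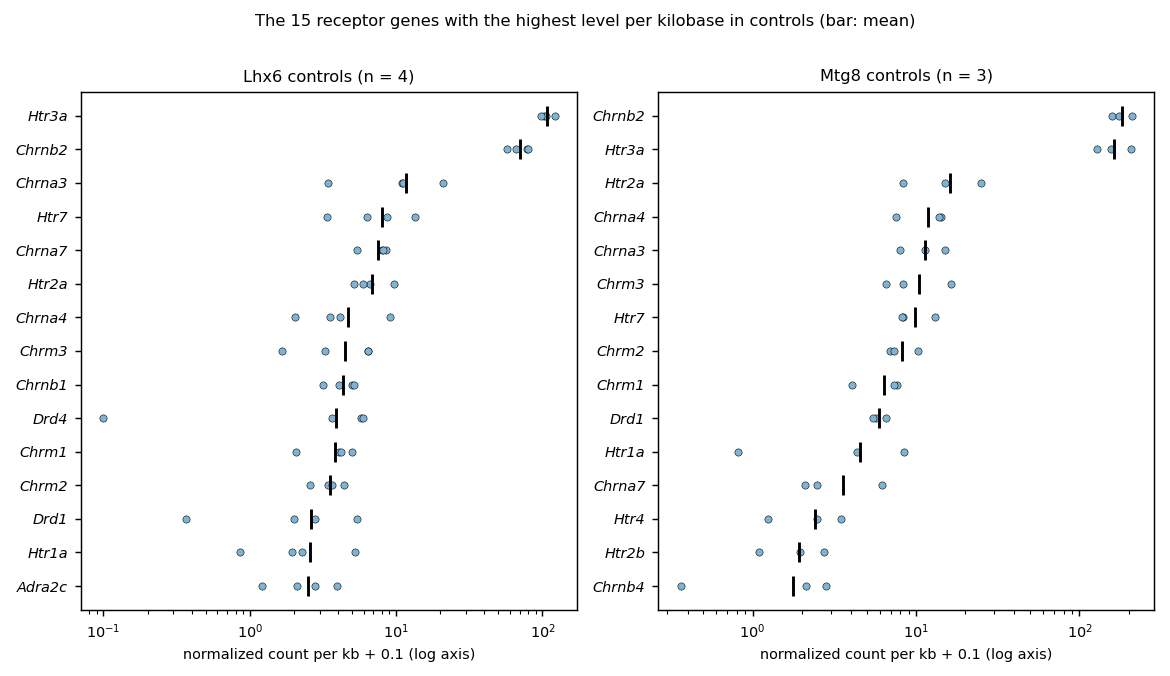
Level per kilobase of exon in control libraries (normalized counts per kb plus 0.1, log axis) for the 15 receptor genes with the highest control mean in the Lhx6 table (left, n = 4) and the Mtg8 table (right, n = 3). Points are libraries and bars are means. Htr3a and Chrnb2 stand apart from all the others in both tables, and below them the ranges of neighbours overlap.

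The first comparison asked which receptor genes differed between *Lhx6* mutants and their controls. *Htr3a* was the only one of the 15 tested that passed the test, against 1.71% of all tested genes, and it was lower. It lies at chr9:48899213-48911099 on the minus strand (GRCm38) and encodes the subunit that forms serotonin-gated cation channels. Its normalized counts were 253, 212, 221 and 202 in controls 1 to 4. In mutants 1, 2, 3, 5 and 6 they were 33.4, 113, 41, 116 and 90.4. Every mutant lay below every control, and mutants 1 and 3 lay well below the other mutants. The mean was 222 ± 22.1 in controls (SD, n = 4) and 78.8 ± 39.3 in mutants (SD, n = 5), which is 35.5% of the control mean. The spread relative to the mean was 9.95% among controls and 49.9% among mutants. The log2 difference was -1.65 ± 0.37 (SE), with a 95% confidence interval of -2.46 to -0.85 and an adjusted p = 0.0451 (limma, Benjamini-Hochberg over 16727 genes). The exact two-sided permutation test gave p = 0.00794, the smallest value that 4 against 5 libraries allow, before any adjustment. In bulk samples such as these, fewer cells of a type and less RNA per cell cannot be told apart.

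The call for *Htr3a* stood close to the threshold: its direction was the same under every setting tried, but edgeR's quasi-likelihood test gave adjusted p = 0.0612 and DESeq2 gave 0.00257. Leaving out control 1, 2, 3 or 4 or mutant 3 raised the adjusted p above the threshold, to between 0.068 and 0.174 (limma). All 4 controls and mutant 6 had library names without a date and the other 4 mutants had dated names, and the labels do not say what the date marks. Within the undated names, mutant 6 differed from the 4 controls by -1.28 (log2), and no control had a dated name. Controls 1 and 2 and mutant 6 also shared the first part of their names, and mutant 6 differed from these 2 controls by -1.35. Mutants 2 and 5, with 113 and 116 normalized counts, shared another. The labels do not say what a shared first part marks. Fitted with name style as a covariate the difference was the same -1.28, since it then rested on mutant 6 alone against the controls, and the adjusted p was 0.966 (limma). The lone mutant library is assumed there to vary like the other groups.

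**Figure D2:**
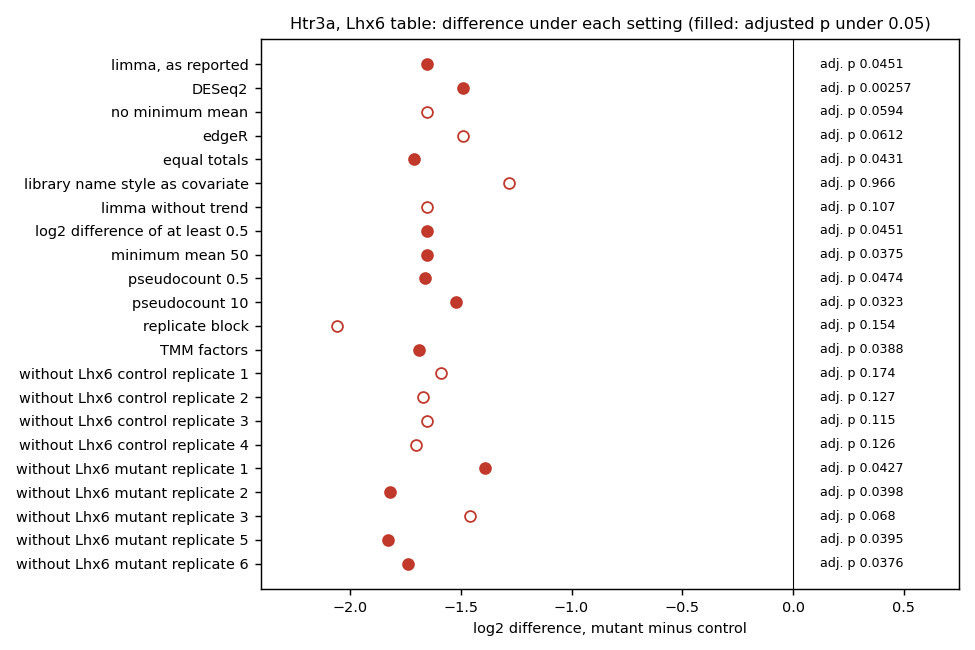
Log2 difference of Htr3a between Lhx6 mutants and controls under each setting, with the adjusted p printed at the right. Filled points passed an adjusted p of 0.05 and open points did not. All values lie between -2.06 and -1.28, and the call is lost under edgeR, without the minimum mean, without limma's trend, with the replicate block or name style in the model, and without any of the controls or mutant 3.

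Markers of interneurons and of other cell types were measured in the same libraries. The 13 interneuron markers named below, *Lhx6* itself among them, summed to 48685 to 59745 in controls and 31614 to 53203 in *Lhx6* mutants. These ranges overlapped. The summed level of the CGE interneuron markers (6 of 7 listed in the table) ran from 4277 to 4774 normalized counts in controls and from 5287 to 9555 in *Lhx6* mutants, without overlap, whereas *Htr3a* was lower in the mutants. The highest means in this sum were those of *Reln*, at 1655 ± 276 in controls and 1924 ± 469 in mutants, and *Nr2f1*, at 1510 ± 298 and 2443 ± 1129. Both overlapped between the groups and passed neither limma's test, edgeR's nor DESeq2's. None of the 6 passed limma's test, and DESeq2 called 2 higher (*Nr2f2* and *Sp8*) and 1 lower (*Cck*). *Nr2f2* was at 721 ± 121 in controls and 1361 ± 420.3 in mutants, *Sp8* at 206 ± 35.6 and 495 ± 304, *Cck* at 447 ± 13 and 263 ± 74.3, and *Prox1* at 84.7 ± 29.1 and 65.7 ± 34.4. The striatal projection neuron markers (12 of 12) also summed higher in the mutants, at 13693 to 27127 against 7805 to 10393. Of the 9 tested, 7 had a higher and 2 a lower mean log2 level. Only *Bcl11b* passed limma's test, from 6042 ± 1229.7 to 16645 ± 4764, and it made up most of the sum. Without it the sums were 2516 to 2883 in controls and 2989 to 4958 in mutants, still without overlap. DESeq2 called 4 higher (*Bcl11b*, *Foxp1*, *Foxp2* and *Meis2*) and none lower, while *Tac1* was at 74.2 ± 30.2 in controls and 26.8 ± 53.5 in mutants and did not pass either test. Of the 7 cholinergic neuron markers 4 were listed and 2 tested, both with a higher mean log2 level in the mutants. *Lhx8* was at 14.3 ± 8.7 in controls and 63.2 ± 43.6 in mutants, without overlap (adjusted p = 0.0982 by limma and 0.00942 by DESeq2). *Isl1* was at 66 ± 99.4 and 213 ± 419 and did not pass limma's test. The pyramidal lineage markers (10 of 10) summed to 15132 to 20995 in *Lhx6* controls and 12066 to 16676 in mutants, which overlapped. Of these 10, 6 had a lower and 4 a higher mean log2 level in the mutants, and none passed limma's test. *Neurod6*, the highest of them, was at 9961 ± 2054 in controls and 7855 ± 969 in mutants. The part of these cell types in the receptor values was not tested.

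Over all genes, 1.71% of the 16727 tested genes passed limma's test, with 0.682% lower and 1.03% higher, against 1 lower and 0 higher of 15 members. edgeR passed 1.67% of genes and 0 members, and DESeq2 passed 4.78% of the genes at the minimum mean and 1 member, *Htr3a*. *Htr3a* was also the only 1 of 15 members whose groups did not overlap, against 6.22% of all tested genes (3.03% lower and 3.19% higher). Of the 15, 9 had a lower mean log2 level in the mutants and 6 a higher one, and the median log2 difference was -0.32 against -0.04 over all tested genes. At an unadjusted p under 0.05 there were 4 of 15 members, *Htr3a*, *Chrm2*, *Drd1* and *Htr2a*, against 2132 of 16727 genes (12.7%). The last 3 are described library by library because of these values, a choice made after the values were seen. *Drd1* reached the minimum mean only through the mutants (control mean 9.22), and *Chrm2* only through the controls (mutant mean 7). Their place in this count therefore depends on the filter, and no conclusion is drawn from it.

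*Htr2a* lies at chr14:74640840-74709494 on the plus strand. Its normalized counts were 53.8, 36.3, 28.6 and 32.5 in *Lhx6* controls 1 to 4 and 0, 35.2, 54, 0.969 and 0 in mutants 1, 2, 3, 5 and 6. The mutants split, with mutants 2 and 3 inside or just above the control range and the other 3 at 0 or 1 read. A count of 0 reads allowed up to 3.71 normalized counts in mutants 1 and 6. The log2 difference was -2.85 ± 1.19 (SE; 95% interval -5.42 to -0.28) and did not pass (limma adjusted p = 0.337). It was -1.06 with DESeq2, -1.05 with edgeR, -1.23 with a pseudocount of 10, -1.64 with the replicate block and -5.24 with name style in the model, the last being mutant 6 alone, at 0 reads, against the controls.

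The muscarinic receptor gene *Chrm2*, encoding a Gi-coupled receptor for acetylcholine, is at chr6:36388084-36528414 on the plus strand. It had 26, 15.1, 20.3 and 21.4 normalized counts in *Lhx6* controls 1 to 4 and 0, 0, 21.4, 13.6 and 0 in mutants 1, 2, 3, 5 and 6. Only mutants 3 and 5 held reads, and 4 of the 5 mutants lay below every control. The log2 difference was -2.74 ± 1.07 (SE; 95% interval -5.06 to -0.43) and did not pass (limma adjusted p = 0.302). It was -1.55 with DESeq2, -1.52 with edgeR, -1.03 with a pseudocount of 10 and -4.41 with name style in the model, which is again mutant 6 alone, at 0 reads, against the controls. Exons of *9330158H04Rik* overlap *Chrm2* on the other strand, and the sources used here do not give the strand setting of the counting.

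*Drd1*, at chr13:54051183-54055705 on the minus strand, encodes a Gs-coupled dopamine receptor that is abundant in striatal projection neurons. Its normalized counts were 0.961, 9.75, 19.3 and 6.84 in *Lhx6* controls and 29.7, 47.2, 40, 8.72 and 21 in the mutants. Of the 5 mutants 4 lay above every control, and mutant 5 lay among them. The mean was 9.22 ± 7.67 in controls (SD, n = 4) and 29.3 ± 15.2 in mutants (SD, n = 5), with a log2 difference of 1.80 ± 0.73 (SE; 95% interval 0.22 to 3.37) that did not pass (limma adjusted p = 0.317). Without control 1 the difference was 1.15. The summed striatal markers given above were higher in the same libraries, and their part in the *Drd1* values was not tested.

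Among the other serotonin receptors, *Htr7*, a Gs-coupled receptor gene at chr19:35958734-36057507 on the minus strand, had 45.2, 29.2, 21.2 and 11.1 normalized counts in *Lhx6* controls and 34.6, 29.6, 6.52, 58.1 and 66.9 in mutants. The groups overlapped widely, with 2 mutants above and 1 below every control, and the log2 difference was 0.36 ± 0.64 (SE; 95% interval -1.02 to 1.74). It ran from 0.02 without control 4 to 0.89 without mutant 3, and was -0.64 with the replicate block. With name style in the model it was 1.45, which is mutant 6 alone against the controls. *Htr1a*, a Gi-coupled receptor gene, ran from 3.42 to 23.1 in controls and from 0 to 51.2 in mutants. Its log2 difference of -0.81 ± 1.18 (SE) and its mean, which was 134% of the control mean, pointed opposite ways. In 2 mutants it had no reads, and mutant 3 held the highest value. Without 1 library the difference ran from -1.6 to -0.18. It was 0.42 with DESeq2 and 0.41 with edgeR. With name style in the model it was -3.34, which is mutant 6 alone, at 0 reads, against the controls.

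The nicotinic subunit genes were measured most precisely through *Chrnb2*, at chr3:89746195-89764632 on the minus strand. It had 659, 479, 668 and 552 normalized counts in *Lhx6* controls and 827, 741, 957, 639 and 472 in mutants. Mutants 1, 2 and 3 lay above every control, mutant 5 among them and mutant 6 below. The mean was 589.6 ± 90.8 in controls (SD, n = 4) and 727 ± 184 in mutants (SD, n = 5), and the log2 difference was 0.28 ± 0.21 (SE), with a 95% interval of -0.17 to 0.72 (limma adjusted p = 0.596). Without 1 library it ran from 0.17 to 0.42. Exons of *Adar* overlap *Chrnb2* on the other strand.

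*Chrna3*, an alpha subunit gene at chr9:55010111-55026562 on the minus strand, lies in a cluster, with 1591 bases between it and *Chrnb4* and 2331 bases between it and *Chrna5*. It had 56.7, 109.9, 17.5 and 58.2 normalized counts in *Lhx6* controls and 45.8, 29.6, 61.5, 23.2 and 54.5 in mutants. All mutants lay inside the control range, and the log2 difference was -0.32 ± 0.50 (SE; 95% interval -1.39 to 0.76). Its neighbours *Chrnb4* and *Chrna5* were too low to judge, at most 16 reads and 8 reads in any library. *Chrna7*, whose product forms homomeric calcium-permeable channels, is at chr7:63098692-63212569 on the minus strand and had 35.6, 38.1, 24 and 35.9 in controls and 1.24, 24.1, 43.8, 49.4 and 21 in mutants. Mutants 3 and 5 lay above every control and mutant 1 was at a single read, and the log2 difference was -0.80 ± 0.78 (SE; 95% interval -2.48 to 0.88). Without mutant 1 it was -0.02, and DESeq2 gave -0.25 with all libraries. *Chrna4*, the usual partner of the *Chrnb2* product, ran from 9.75 to 45.3 in controls and from 1.24 to 47.2 in mutants. Its log2 difference was -0.75 ± 0.92 (SE), -0.12 with DESeq2, -0.13 without mutant 6 and 0.07 with the replicate block. Without mutant 2 the difference was -1.23. With name style in the model it was -3.23, which is mutant 6 alone, at 1 read, against the controls.

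The muscarinic genes *Chrm1* and *Chrm3* encode Gq-coupled receptors. In the *Lhx6* table *Chrm1* ran from 12.8 to 31.9 in controls and from 11.6 to 37.3 in mutants, with a log2 difference of -0.09 ± 0.47 (SE; 95% interval -1.11 to 0.92). *Chrm3* had 39.4, 9.75, 39.6 and 19.7 in controls and 8.66, 6.48, 15.8, 26.2 and 6.19 in mutants, and 3 of the 5 mutants lay below every control. Its log2 difference was -1.05 ± 0.61 (SE; 95% interval -2.36 to 0.26; limma adjusted p = 0.498).

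The 3 members tested only in the *Lhx6* table were close to the minimum mean. *Adrb1* and *Adra2c* reached it only through the mutants, with control means of 5.34 and 8.3. *Adrb1*, a Gs-coupled beta-adrenergic receptor gene, ran from 2.66 to 10.3 normalized counts in controls and from 1.24 to 59.4 in mutants, where mutant 1 held the highest value. *Adra2c*, a Gi-coupled alpha-adrenergic receptor gene, ran from 3.85 to 13.3 and from 0 to 29.1. *Drd4*, a Gi-coupled dopamine receptor gene, ran from 0 to 19.7 and from 1.86 to 43.5. None of the 3 passed the test, with log2 differences of 1.04 ± 0.94, 0.12 ± 0.95 and 0.44 ± 1.05 (SE). Over all alternatives these ran from -1.37 to 1.95 for *Adrb1*, from -0.65 to 0.93 for *Adra2c* and from -0.59 to 1.19 for *Drd4*. *Adrb1* was at 1.95 with DESeq2, 0.45 without mutant 1 and 1.64 without mutant 6.

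**Figure D3:**
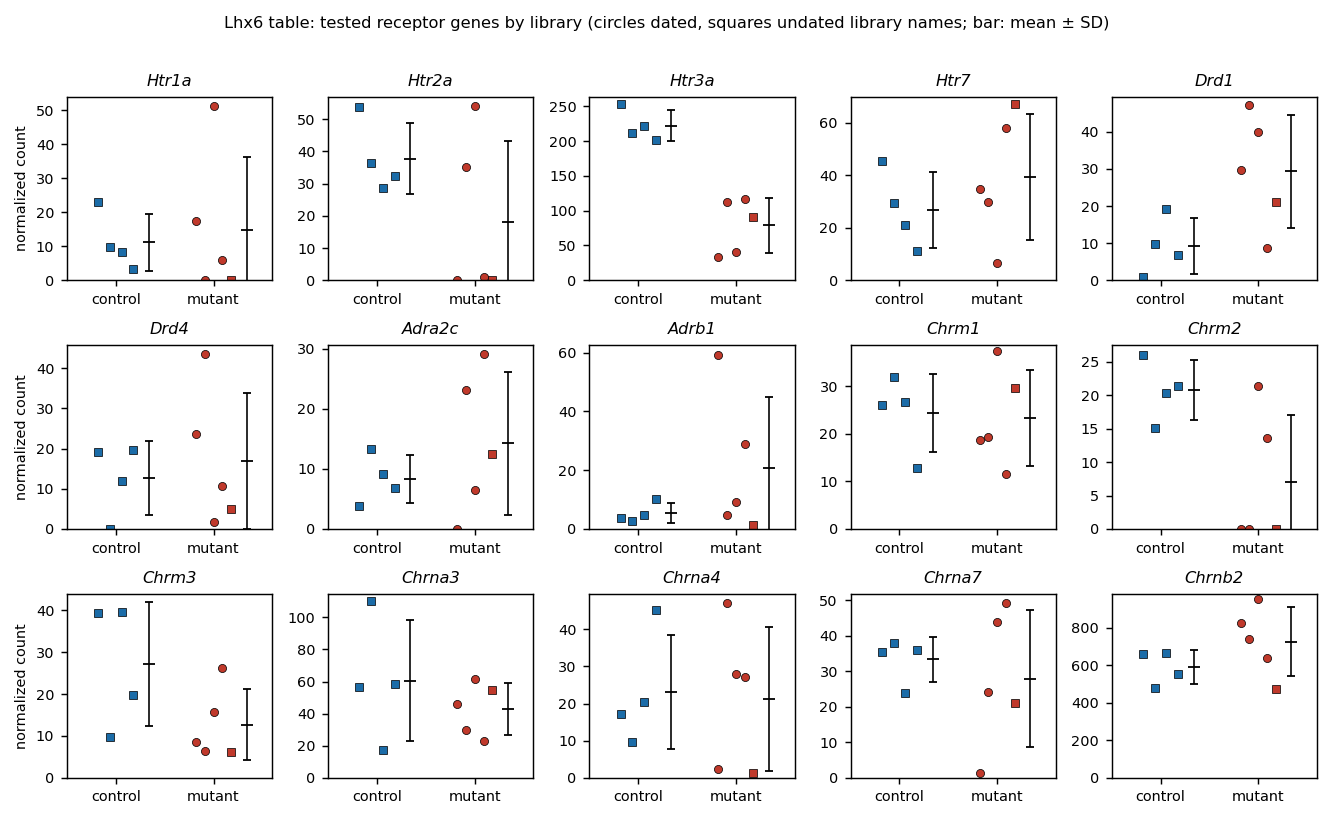
Normalized counts of the 15 tested receptor genes in each library of the Lhx6 table, with 4 controls (blue) and 5 mutants (red), each panel on its own linear axis from 0. Circles are libraries with a dated name and squares those with an undated name, and black bars give mean ± SD, clipped at 0. The groups are apart for Htr3a alone, and for Htr2a and Chrm2 3 of the 5 mutants lie at or near 0.

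The second comparison set the libraries labelled *Mtg8* mutant against their controls. None of the 12 tested members passed limma's test, and neither did any of the 16132 genes tested (0%), of which 886 (5.49%) had an unadjusted p under 0.05. edgeR passed 1 gene (0.0062%) and DESeq2 31 genes (0.192% of those at the minimum mean), with 0 members among them by either tool. A design of 3 against 3 libraries cannot give an exact permutation p below 0.1. The groups did not overlap for 3 of 12 members, *Chrm3*, *Htr7* and *Chrna7*, against 10.2% of all tested genes (5.52% lower and 4.68% higher). Of the 12 members 10 had a lower mean log2 level and 2 a higher one, with a median of -0.58 against -0.01 over all tested genes. The 3 members whose groups did not overlap were also the 3 with an unadjusted p under 0.05. *Chrm3* was taken up for that reason after its values were seen, while *Htr7* and *Chrna7* were among the 5 highest per kilobase in *Lhx6* controls.

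*Chrm3*, at chr13:9875486-10360847 on the minus strand, had 51.4, 101 and 40.1 normalized counts in *Mtg8* controls 1, 2 and 4 and 17, 12.9 and 20.6 in the libraries labelled mutants 2, 3 and 4. All 3 of these libraries lay below the lowest control, and they lay closer together than the controls did. The means were 64.3 ± 32.6 and 16.8 ± 3.89 (SD, n = 3 each), or 26.2% of the control mean. The log2 difference was -1.78 ± 0.44 (SE; 95% interval -2.75 to -0.82), with limma adjusted p = 0.769, edgeR adjusted p = 0.566 and DESeq2 adjusted p = 0.0676. Within name styles it was -1.25 among undated names, control 4 against mutants 3 and 4. Among dated names, controls 1 and 2 against mutant 2, it was -2.03. Each such value, here and for *Htr7*, *Chrna7* and *Htr3a* below, thus rests on a single control or a single mutant library. In the *Lhx6* table the same gene differed by -1.05, as given above, with overlapping groups.

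*Htr7* had 27.9, 43.7 and 27.4 normalized counts in *Mtg8* controls and 11.3, 15.6 and 16.1 in the libraries labelled *Mtg8* mutant. The 3 lower libraries lay close together, and the log2 difference was -1.13 ± 0.44 (SE; 95% interval -2.09 to -0.18; limma adjusted p = 0.859). Within name styles the difference was -0.75 among undated and -1.55 among dated names. *Chrna7* went the other way, with 8.94, 10.7 and 27.4 in controls and 34, 31.2 and 68 in the libraries labelled mutant. In both groups it was library 4 that held the most, and the log2 difference was 1.52 ± 0.52 (SE; 95% interval 0.39 to 2.65; limma adjusted p = 0.859). For *Chrna7* it was 0.73 among undated and 1.7 among dated names.

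*Htr3a* had 322, 266 and 429 normalized counts in *Mtg8* controls and 159.7, 299.6 and 268 in the libraries labelled *Mtg8* mutant. Only 1 of these lay below every control. The means were 339 ± 83.3 and 243 ± 73.4 (SD, n = 3 each), with a log2 difference of -0.50 ± 0.29 (SE; 95% interval -1.14 to 0.13; limma adjusted p = 0.866). It was -0.23 without mutant 2 and -0.32 without control 4. Within name styles it was -0.60 among undated names and -0.87 among dated ones, which are controls 1 and 2 and mutant 2 and also share the first part of their names. Whether this differed from the -1.65 found in the *Lhx6* mutants was not tested.

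*Chrnb2* had 1322, 1468 and 1749 normalized counts in *Mtg8* controls and 1319, 682 and 1618 in the libraries labelled mutant, with mutant 3 far below the other libraries. Its log2 difference was -0.41 ± 0.29 (SE; 95% interval -1.03 to 0.21), and -0.04 without mutant 3. *Chrna3* had 59.2, 41.6 and 78.3 in controls and 36.3, 45 and 59.6 in the libraries labelled mutant, a log2 difference of -0.32 ± 0.37 (SE) that ran from -0.56 without control 2 to -0.11 without control 4. *Chrna4* ran from 37.3 to 71.5 and from 23 to 61.2, and differed by -0.80 ± 0.45, or by -1.25 without mutant 4.

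*Htr2a* had 45.8, 84.2 and 139.9 in controls and 46.4, 15.6 and 102 in the libraries labelled mutant. *Chrm2* had 61.5, 41.6 and 44 in controls and 55.5, 11.9 and 18.3 in the libraries labelled mutant. Both sets of values overlapped, with log2 differences of -0.93 ± 0.59 and -1.03 ± 0.52 (SE). For *Htr2a* the difference was -0.24 without mutant 3, -0.55 without control 4 and -1.56 without mutant 4. For *Chrm2* it was -1.64 without mutant 2, -0.58 without mutant 3 and -0.41 with the replicate block. The remaining 3 tested members, *Htr1a*, *Drd1* and *Chrm1*, also overlapped, and their log2 differences were -0.38 ± 0.77, -0.66 ± 0.54 and 0.52 ± 0.39 (SE). Without 1 library these ran from -1.28 to 0.31, from -1.17 to -0.38 and from 0.23 to 0.68.

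**Figure D4:**
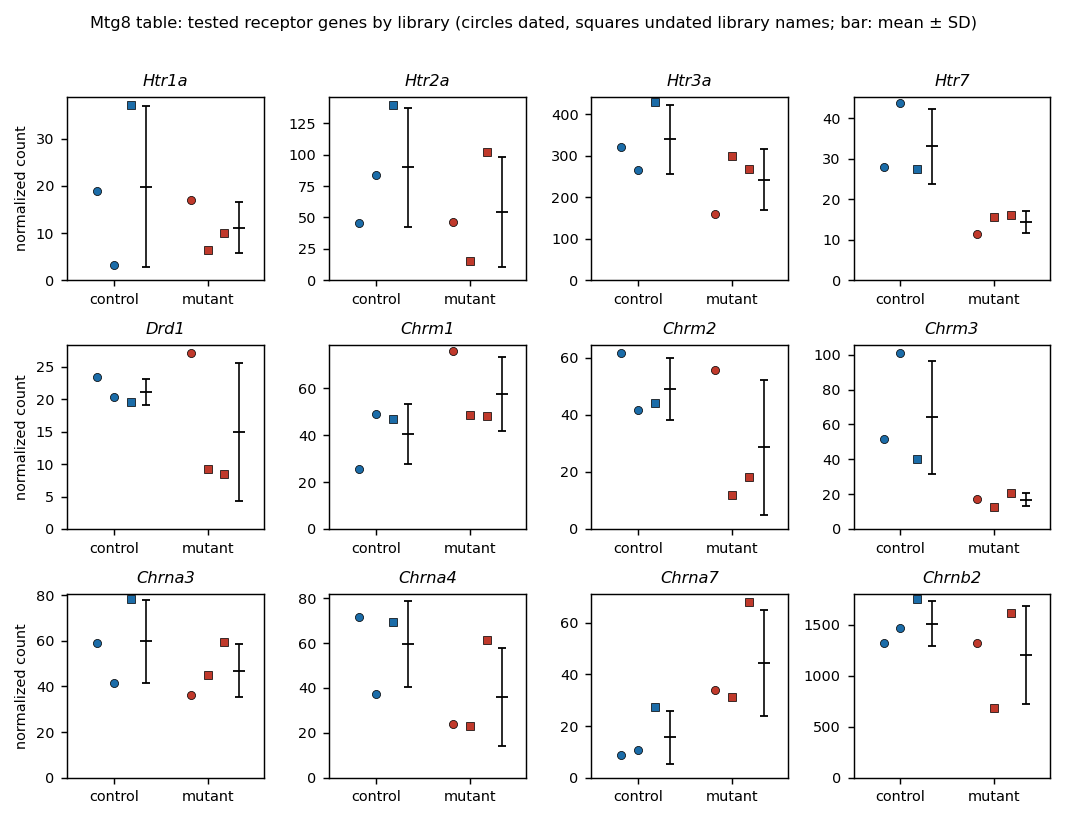
Normalized counts of the 12 tested receptor genes in each library of the Mtg8 table, with 3 controls (blue) and 3 libraries labelled Mtg8 mutant (red), each panel on its own linear axis from 0. Circles are dated and squares undated library names, and black bars give mean ± SD. The groups are apart for Htr7, Chrm3 and Chrna7.

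Beside these values, 13 interneuron markers summed to 78294 to 84939 normalized counts in *Mtg8* controls and 49469 to 64618 in the libraries labelled *Mtg8* mutant. They were *Lhx6*, *Sst*, *Npy*, *Sox6* and *Maf*, and *Gad1*, *Gad2*, *Erbb4*, *Slc32a1*, *Dlx1*, *Dlx2*, *Dlx5* and *Dlx6*, which GABAergic neurons from outside the MGE also express. The radial glia markers (7 of 7) summed to 5784 to 7156 and 7423 to 11777. Neither pair of ranges overlapped. The pyramidal lineage markers (10 of 10) summed to 5686 to 13986 and 8913 to 22489, which overlapped. All 10 had a higher mean log2 level in the libraries labelled *Mtg8* mutant, with a median log2 difference of 0.64, and DESeq2 called 2 of them, *Neurod2* (217% of the control mean) and *Emx1* (347%). The part of these cells in the receptor values was not tested.

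**Figure D5:**
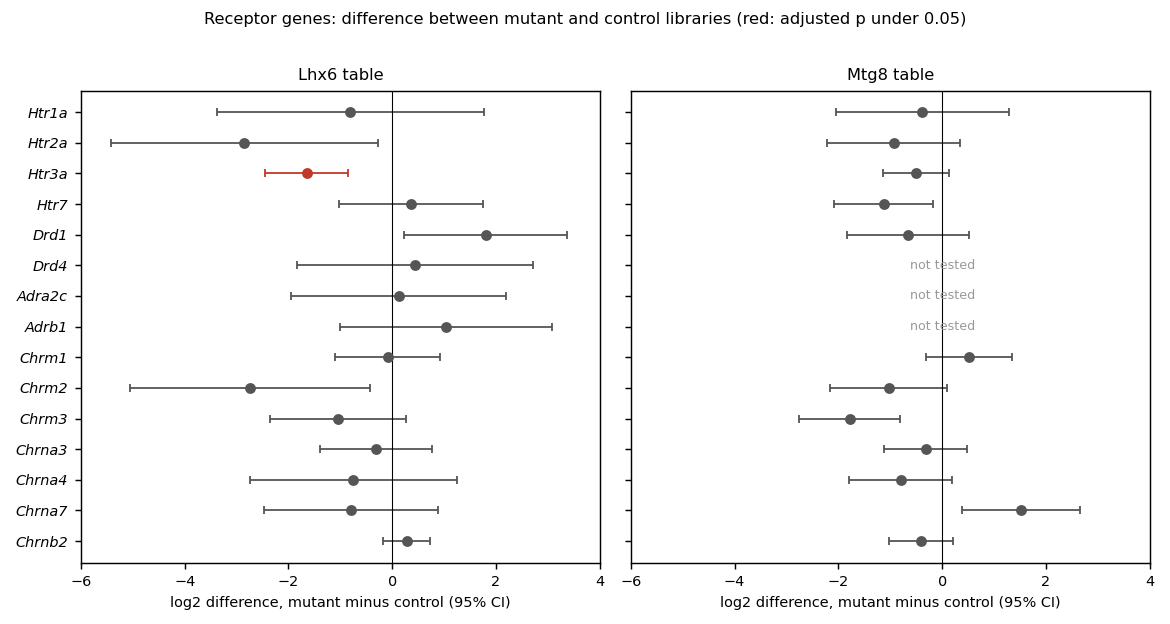
Log2 difference between mutant and control libraries for each tested receptor gene, with 95% confidence intervals from limma (left, Lhx6 table; right, Mtg8 table). The red point, Htr3a in the Lhx6 table, is the only one with an adjusted p under 0.05. Chrnb2 has the narrowest interval in both tables and includes 0 in each.

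Around the receptors, 89 genes for other receptors of these families, transmitter synthesis and breakdown, receptor chaperones, G proteins, their effectors and their regulators were listed, of which 55 were tested in each table. In *Lhx6* mutants 1 of 55 passed limma's test as lower and 1 as higher, against 0.682% and 1.03% of all tested genes, and 27 had a lower and 28 a higher mean log2 level, with a median log2 difference of 0.02. *Plcb1*, a phospholipase C isoform activated by Gq-coupled receptors, fell from 703 ± 57.1 to 369 ± 90.5 normalized counts (log2 difference -0.96, limma adjusted p = 0.0245). *Rgs10*, which shortens Gi signalling by speeding GTP hydrolysis, rose from 81.6 ± 7.35 to 268 ± 33.8 (log2 difference 1.70, limma adjusted p = 0.000404). All 17 listed G protein subunit genes were tested and none passed limma's test. DESeq2 called *Gnas* lower (adjusted p = 0.0396) and *Gnai2*, *Gnao1* and *Gng4* higher (adjusted p = 0.0433, 0.00524 and 0.0032), which is 4 of 17 against 4.78% of all genes at the minimum mean. Over all 55, DESeq2 called 3 lower and 6 higher, the others being *Plcb1* and *Lypd6b* lower and *Rgs10*, *Ddc* and *Adcy2* higher. In the libraries labelled *Mtg8* mutant 0 of 55 passed, with a median of 0.07, and *Plcb1* and *Rgs10* differed by -0.10 and -0.25.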

How the data were processed

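RNA from each sorted embryo sample was converted to libraries with low-input kits and sequenced as single 75-base reads. The authors used fastp 0.20.1 for trimming and STAR 2.7b for alignment to GRCm38.p6, counted reads per gene with featureCounts 1.6.4, removed sex-linked genes and normalized each table with DESeq2. The deposited values were thus a signal in normalized counts, reads divided by a size factor for each library. Whole reads were recovered from them in 100% of values (tolerance 0.01). The deposited columns of fold changes and p-values were not used. The receptor genes and the other lists were chosen with earlier results of these data known. Each table was tested alone with limma-trend (limma 3.58.1 in R 4.3.3). Values entered as log2(normalized count + 1), genes averaging under 10 were left out, and tests were two-sided, with Benjamini-Hochberg adjustment over all genes tested and a threshold of 0.05. Differences are between means on that log2 scale. The pseudocount shrinks differences of low genes, while single libraries at 0 reads can make them larger than the ratio of the means, as for Htr2a and Chrm2. Exact permutation tests were run on single genes. Members among the 5 highest per kilobase in Lhx6 controls, or called, or without overlap in the Lhx6 table, were given library by library, and the other tested members with their values. Htr2a, Chrm2, Drd1 and Chrm3 fall outside this rule in the Lhx6 table and were given library by library after their values were seen. Alternatives were edgeR 4.0.16 and DESeq2 1.42.0 on recovered reads (whose calls are compared in the text), pseudocounts of 0.5 and 10, TMM factors, a minimum mean of 50 or none, equal totals, no trend, an added log2 cut-off of 0.5, the replicate number as block, library name style, and leaving out each library. The scripts were tested on simulated data. Depth was 12218422 to 22053032 reads per library, where 3 reads, the limit set by a count of 0, equal 2.29 to 3.71 normalized counts (counting error only).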

Additional observations from a re-analysis of the deposited data

How the results depend on the processing

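For Htr3a in the Lhx6 table the direction held under all 21 alternatives, from -2.06 to -1.28, while the count of receptor genes called there was 1 or 0. The count was 0 and the adjusted p rose above the threshold (limma unless named) with no minimum mean (-1.65, 0.0594), edgeR (-1.49, 0.0612), no trend (-1.65, 0.107), and library name style in the model (-1.28, 0.966), where every Lhx6 value rests on mutant 6 alone against the controls. Without 1 library the count was 0 to 1 and the difference -1.83 to -1.39 (adjusted p 0.0376 to 0.174), with 0 called when control 1, 2, 3 or 4 or mutant 3 was left out. Replicate numbers are shared by the groups but did not pair the Lhx6 libraries, where correlations of same-numbered libraries were -0.154, 0.00175 and 0.0717. The 2 same-numbered Mtg8 pairs gave 0.138 and 0.159, above all other Mtg8 pairs (-0.18 to 0.0778). With only 2 pairs it cannot be decided whether the numbers pair the Mtg8 libraries. With the replicate block a difference rests only on same-numbered libraries, numbers 1, 2 and 3 in the Lhx6 table and 2 and 4 in the Mtg8 table. So few pairs leave little to estimate the spread from, and no conclusion is drawn from the counts of calls. The Lhx6 comparison then had 0 receptor genes called (Htr3a -2.06, limma adjusted p 0.154) and 86 genes in all against 286. The Mtg8 comparison had 0 receptor genes called and 100 genes in all against 0. The block also turned the sign of Htr7 (-0.64), Adra2c (-0.65) and Chrna4 (0.07) in the Lhx6 table and of Htr1a (0.15) in the Mtg8 table.

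None of the other sign changes was in a called gene, and the cause was not tested. In the Lhx6 table the log2 difference of Htr1a was 0.42 with DESeq2 and 0.41 with edgeR, that of Adra2c -0.03 with a pseudocount of 0.5, and with name style in the model Drd4 was at -0.53, Adrb1 at -1.37, Chrm1 at 0.35, Chrna3 at 0.11 and Chrnb2 at -0.31. Without 1 library the differences ranged from -0.59 to 0.95 for Drd4, -0.3 to 0.93 for Adra2c, -0.36 to 0.12 for Chrm1 and -0.81 to 0.05 for Chrna3, and in the Mtg8 table from -1.28 to 0.31 for Htr1a. Of the tested receptor genes, 6 of 15 kept their direction under every alternative in the Lhx6 table (Htr2a, Htr3a, Drd1, Chrm2, Chrm3 and Chrna7) and 11 of 12 in the Mtg8 table. Among Mtg8 libraries 0 receptor genes were called under every alternative. Of these 6 Lhx6 genes, sizes ranged from -5.24 to -1.05 for Htr2a, -4.41 to -1.03 for Chrm2, -1.77 to -0.68 for Chrm3, -1.28 to -0.02 for Chrna7 and 1.02 to 2.38 for Drd1. The 14 genes too low to judge held at most 26 reads in a library and were not tested at the minimum mean of 10.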
